A study of Mus musculus with 17 samples.

Results

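The TCF/LEF family comprises Tcf7, Tcf7l1, Tcf7l2 and Lef1, the DNA-binding partners of beta-catenin. These 4 genes were taken by symbol and matched to their Ensembl identifiers, and all 4 were found among the 47729 genes counted. Messenger RNA was sequenced in 17 libraries of the mouse embryonic stem cell lines R1 and CGR8, which were all grown with the cytokine LIF in serum-free N2B27 medium. The study followed cells from the naive state of pluripotency through a rosette-stage state to the primed state.

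The medium L2i held the GSK3 inhibitor CHIR99021 (3 µM) and the MEK inhibitor PD325901 (0.1 µM). LIM held PD325901 (0.1 µM) with IWP2 (2 µM), which blocks the release of Wnt ligands. LFAI held FGF2 (12 ng/ml), Activin A (20 ng/ml) and IWP2 (2 µM), without either kinase inhibitor. In the two-line set, L2i, LIM, LFAI for 35 h and LFAI for 4 days each had 1 library of R1 and 1 of CGR8 (n = 2). The LIM cells had spent 4 passages (R1) or 6 passages (CGR8) in that medium. The lines also differed in passage number in each medium, so line and passage cannot be told apart within a medium. Passage history differed between media within a line too. In R1, for example, the L2i library was at passage 32 with 10 passages in 2i, and the 4-day LFAI library at passage 26 with 3. Medium and passage history therefore cannot be told apart either. A time course of R1 alone started in L2i on day 0 and was sampled daily to day 4 in LIM or in LFAI, with 1 library per point. It was grown on another coating and sequenced with another protocol than the two-line set. All libraries are of established cell lines without genetic change stated in the labels.

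TCF/LEF proteins bind DNA through a high-mobility-group box. Without nuclear beta-catenin they recruit Groucho/TLE co-repressors, and with it they can activate their targets. CHIR99021 stabilises beta-catenin by inhibiting GSK3, while IWP2 prevents cells from sending Wnt signals to one another. In embryonic stem cells Tcf7l1 is known as a repressor of naive genes such as Nanog and Esrrb. Lef1 and Tcf7 are best known from T lymphocytes, where they mostly act as activators, and Tcf7l2 from the intestine.

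On build GRCm38 with the GENCODE M21 annotation, Lef1 (ENSMUSG00000027985) lies on chromosome 3 from 131110471 to 131224356 on the plus strand. Tcf7l1 (ENSMUSG00000055799) lies on chromosome 6 from 72626378 to 72789254 on the minus strand. Tcf7 (ENSMUSG00000000782) lies on chromosome 11 from 52252371 to 52283014 on the minus strand. Tcf7l2 (ENSMUSG00000024985) lies on chromosome 19 from 55741820 to 55933654 on the plus strand. The counts cover whole genes, so isoforms of a member are not distinguished. Lef1 shares 1208 exonic bases with the antisense gene Gm43352, which reached at most 8 counts in any library. Tcf7l1 shares 179 exonic bases with the antisense gene Gm15401, which reached at most 4 counts.

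Lef1 was the member that moved most, so the 150 bases before 1 of its 4 RefSeq starts, 131110323, are shown (GRCm38.p6, plus strand, 5′ to 3′, chr3:131110173-131110322). This start lies upstream of the GENCODE start given above.
Lef1 upstream: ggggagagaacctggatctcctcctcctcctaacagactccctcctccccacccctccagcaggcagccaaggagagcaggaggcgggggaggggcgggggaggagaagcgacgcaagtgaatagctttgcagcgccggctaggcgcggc
The core TCF/LEF motif CTTTGAT was searched on both strands in RefSeq windows from 250 bases before to 50 after each start, and 3.73% of 32851 windows, or 4.29% of 27025 genes with a window, held it. None of the 9 windows of the 4 members held these letters. Among 17 TCF/LEF target genes, 10 had a window and 2 of these held CTTTGAT, Sp5 and Tnfrsf19. Both were lower outside L2i, as described below, and so was Axin2, whose window did not hold CTTTGAT. With the spelling CTTTGAA added after the first search, and likewise the related spelling CTTTGTT and the further one CTTTGTA, 16.9% of windows (18.9% of genes) held at least 1 of the 4. These were found at a downstream start of Lef1 and of Tcf7l2, and in 5 of the 10 targets, with Dkk1, Sp8 and T added. The CTTTGAT sites of Sp5 and Tnfrsf19 and the sites of Lef1 and Tcf7l2 are shown with 11 bases on either side. They are on the strand of the gene, with the motif in capitals. The Sp5 window also held CTTTGTT on the other strand, which is not shown.
Sp5 (chr2:70474808-70474836, plus strand, CTTTGAT): ggcaaggccccCTTTGATcaggaaaatcc
Tnfrsf19 (chr14:61038172-61038200, minus strand, CTTTGAT on the other strand): ctgaatgggggATCAAAGtgacaaactag
Lef1, internal start (chr3:131156136-131156164, plus strand, CTTTGTA on the other strand): caacctcagaaTACAAAGtaggattgcat
Tcf7l2, alternative start (chr19:55895296-55895324, plus strand, CTTTGTT): aaaatatcaggCTTTGTTcttttgattga
A match is a description of the letters, and no binding was measured.

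Gene counts were 15135012 to 22593805 per library in the two-line set and 12889029 to 13667302 in the time course. The L2i library of R1 was the deepest and had the fewest genes detected (18733, against up to 22303). Pluripotency markers (Pou5f1, Sox2, Nanog, Zfp42 and Utf1) were all detected in every library, with summed levels of 1869 to 4304 CPM (a gene’s counts relative to the TMM-scaled total of its library). Marker lists of 5 genes each for primitive endoderm, mesoderm and fibroblasts summed to at most 27.2 CPM. In bulk RNA, fewer cells of a type and less RNA per cell cannot be told apart. The libraries of the two-line set are separate lines, and nothing in the labels says that separate cultures were sequenced within a line.

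One time course library stood apart from its label. Over 9537 genes with at least 10 CPM on average, the library labelled LFAI day 1 correlated with LIM day 1 at r = 0.994 and with LFAI day 2 at r = 0.896 (log2 CPM, across genes of 1 line, no test). Dusp6, a phosphatase induced by FGF and MEK signalling, was at 9.22 CPM by library total in it, against 9.70 in LIM day 1 and 77.4 in LFAI day 2. Spry4, a feedback inhibitor of the same pathway, was at 2.85 CPM by library total, against 2.17 in LIM day 1 and 84.8 in LFAI day 2. In the two-line set after 35 h of LFAI, Dusp6 was at 50.03 (R1) and 58.1 (CGR8) CPM by library total. These 2 genes were chosen after the likeness was seen. The reason was not tested, and values that rest on this library are marked as such or also given without it.

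In the two-line set, Lef1 was higher than in L2i in each of the 3 IWP2 media, where LIM had lasted 4 or 6 passages. Over 4 days of LIM in the time course, Lef1 did not exceed day 0 beyond counting error, as given below. Its level in the two-line set was 8.09 (R1) and 9.03 CPM (CGR8) in L2i and 32.3 and 75.5 CPM in LIM. It was 78.9 and 37.9 CPM after 35 h of LFAI, and 63.2 and 57.7 CPM after 4 days. The 6 libraries with IWP2 lay above both L2i libraries, and the order of the lines switched between LIM and 35 h of LFAI. Against L2i, Lef1 was 6.31-fold higher in LIM (log2 2.66 ± 0.44 SE, edgeR quasi-likelihood adjusted p = 0.0045, n = 2), where 11.3% of all 15525 tested genes were called higher. After 35 h of LFAI it was 6.83-fold higher (log2 2.77 ± 0.44, edgeR adjusted p = 0.0048), where 7.35% of genes were called higher. After 4 days it was 7.07-fold higher (log2 2.82 ± 0.44, edgeR adjusted p = 0.0011), where 21.5% of genes were called higher. Both lines showed the rise in each comparison, and the comparisons share the 2 L2i libraries. Without the CGR8 library of LIM, the log2 rise of Lef1 in LIM was 1.92, and without the R1 library of 35 h, that after 35 h was 2.15. With the 3 IWP2 media averaged, Lef1 was 6.73-fold higher than in L2i (log2 2.75 ± 0.41, edgeR adjusted p = 0.0013), with 14.2% of genes called higher.

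**Figure D1:**
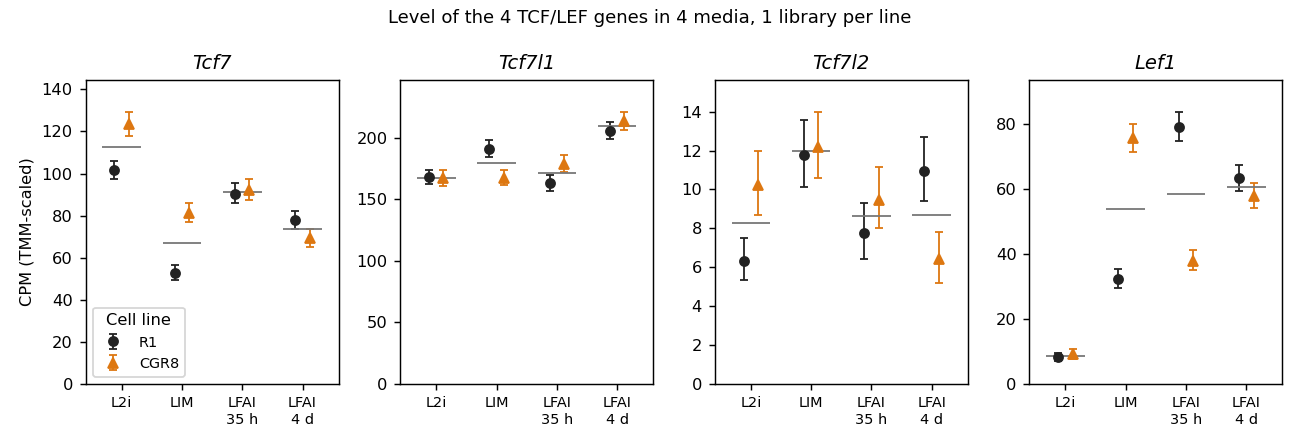
Level of Tcf7, Tcf7l1, Tcf7l2 and Lef1 (y axis, TMM-scaled CPM from 0, a separate scale per gene) in the 4 media of the two-line set (x axis). Circles are R1 and triangles CGR8, bars are 95% exact Poisson intervals of counting error, and grey lines are means of both lines; the 6 Lef1 libraries with IWP2 sit between 32.3 and 78.9 CPM, above 8.09 and 9.03 CPM in L2i.

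Tcf7 moved the other way and by less. Its level was 101.8 (R1) and 123.4 CPM (CGR8) in L2i, 52.9 and 81.4 CPM in LIM, 90.5 and 92.3 CPM after 35 h of LFAI, and 77.9 and 69.4 CPM after 4 days. Every IWP2 library lay below both L2i libraries. In LIM it fell by 0.75 ± 0.20 on the log2 scale (edgeR adjusted p = 0.034), where 7.81% of genes were called lower. After 4 days of LFAI it fell by 0.61 ± 0.20 (edgeR adjusted p = 0.036), where 23.3% of genes were called lower. After 35 h of LFAI the log2 difference was -0.30 ± 0.20 (edgeR adjusted p = 0.37), with 7.16% of genes called lower. Averaged over the IWP2 media Tcf7 fell by 0.55 ± 0.16 (edgeR adjusted p = 0.029), with 16.5% of genes called lower. These calls rest on few libraries, and without the L2i library of CGR8 none of the 3 passed (log2 -0.60 in LIM, -0.48 after 4 days and -0.40 averaged). The fall in LIM was also not called without the R1 library of LIM (-0.46), of L2i (-0.87) or of 4 days (-0.74), without the CGR8 library of 4 days (-0.74), or with only its own 4 libraries fitted (edgeR adjusted p = 0.076). The fall after 4 days was also not called without its R1 library (-0.69), its CGR8 library (-0.53) or the CGR8 library of 35 h (-0.61). The averaged fall was also not called without the R1 library of L2i (-0.68) or of 35 h (-0.55), or the CGR8 library of 4 days (-0.52).

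Tcf7l1, the member with the highest level in CPM throughout the two-line set, was not called in any comparison. Its level was 168.0 (R1) and 167.0 CPM (CGR8) in L2i, 191.0 and 167.6 CPM in LIM, 163.1 and 178.8 CPM after 35 h of LFAI, and 205.7 and 213.2 CPM after 4 days. Both 4-day libraries lay above the other 6. The log2 difference from L2i after 4 days was 0.32 ± 0.12 (edgeR adjusted p = 0.055). In LIM it was 0.10 ± 0.12 (edgeR adjusted p = 0.61) and after 35 h 0.03 ± 0.12 (edgeR adjusted p = 0.90).

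Tcf7l2 was low throughout and was called nowhere. Its level was 6.34 (R1) and 10.2 CPM (CGR8) in L2i, 11.8 and 12.2 CPM in LIM, 7.76 and 9.48 CPM after 35 h of LFAI, and 11.0 and 6.40 CPM after 4 days. The groups overlapped except that both LIM libraries lay above the rest. The log2 difference of LIM from L2i was 0.54 ± 0.34 (edgeR adjusted p = 0.31), and those of 35 h and 4 days of LFAI were 0.06 and 0.07 with SEs of 0.34.

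**Figure D2:**
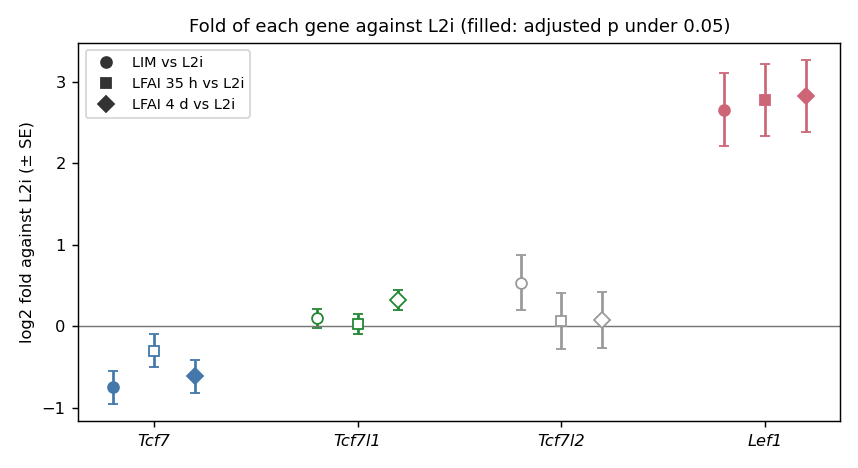
Log2 fold against L2i (y axis) of the 4 genes (x axis) in LIM (circles), after 35 h of LFAI (squares) and after 4 days of LFAI (diamonds), with SE bars from edgeR; filled symbols have an adjusted p under 0.05. The Lef1 values lie between 2.66 and 2.82, and Tcf7 is filled at -0.75 and -0.61.

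Among the IWP2 media no member was called. Lef1 differed by log2 0.11 ± 0.41 between 35 h of LFAI and LIM (edgeR adjusted p = 0.91), where 1.92% of genes were called higher and 4.46% lower. Between 4 days of LFAI and LIM it differed by 0.16 ± 0.41 (edgeR adjusted p = 0.79), where 12.3% of genes were called higher and 17.2% lower. Between 4 days and 35 h of LFAI it differed by 0.05 ± 0.41 (edgeR adjusted p = 0.94), where 17.7% of genes were called higher and 19% lower. The largest member difference among these media by size was that of Tcf7l2 between 35 h of LFAI and LIM, -0.47 ± 0.34 (edgeR adjusted p = 0.47). Between the lines, with the medium as a term, no member was called, and 0.29% of genes were called higher and 0.251% lower in CGR8. An SE of 0.41 leaves room for differences of Lef1 between IWP2 media that these libraries cannot resolve.

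The exchange between members was measured as ratios of counts within a library, which need no scaling between libraries. Lef1 had 0.0797 counts (R1) and 0.0734 counts (CGR8) per Tcf7 count in L2i. In LIM the ratio was 0.611 and 0.928, after 35 h of LFAI 0.872 and 0.410, and after 4 days 0.811 and 0.832. All 6 IWP2 libraries thus lay above both L2i libraries, by 3.23 on the log2 scale on average (exact two-sided permutation test, p = 0.0357, the smallest that 28 arrangements allow, adjusted over 6 pairs p = 0.0714). Lef1 against Tcf7l1 rose by 2.52 and Lef1 against Tcf7l2 by 2.43, each without overlap and with the same exact p of 0.0357 and adjusted p of 0.0714. Tcf7 against Tcf7l1 changed by -0.71 (exact permutation p = 0.0714, adjusted 0.107) and Tcf7 against Tcf7l2 by -0.80 (exact p = 0.107, adjusted 0.129). Tcf7l2 against Tcf7l1 changed by 0.09 (exact p = 0.857). After adjustment none of the 6 ratios passed 0.05. The Lef1 ratios were already at the smallest p that the arrangements allow, so a larger separation could not have lowered their p, and nothing is read from this outcome.

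Levels of different genes were compared per kilobase of merged exons (RPKM). In L2i, Tcf7 at 42.9 ± 5.81 and Tcf7l1 at 42.7 ± 0.18 RPKM (SD, n = 2) differed by less than their spread, and each ranked above 93.6% of 21660 detected genes. Per kilobase of the longest transcript Tcf7 was at 45.6 ± 6.17 and Tcf7l1 at 55.1 ± 0.23 RPKM, so the closeness of the pair depends on the length used. Per kilobase of merged exons, Lef1 at 0.97 ± 0.08 and Tcf7l2 at 0.94 ± 0.31 RPKM were likewise within their spread of each other. Tcf7l1 made up 48.9% ± 3.57 of the family in L2i, 58.5% ± 10.5 in LIM, 50.6% ± 3.18 after 35 h of LFAI and 59.8% ± 2.68 after 4 days. Tcf7 made up 48.9% ± 3.28, 32.2% ± 6.90, 40.5% ± 0.51 and 31.4% ± 1.95. Lef1 made up 1.11% ± 0.01 in L2i and 7.62% ± 3.74, 7.73% ± 3.86 and 7.70% ± 0.34 in the 3 IWP2 media. Tcf7l2 stayed between 1.07% and 1.74% in the group means. The summed level of the family was 87.5 ± 6.02 RPKM in L2i, 78.8 ± 6.96 in LIM, 86.0 ± 0.15 after 35 h and 89.3 ± 1.76 after 4 days. The share of Lef1 depends on the length used: per kilobase of the longest transcript it was 2.22% in L2i and 13.8% to 14.2% in the IWP2 media.

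**Figure D3:**
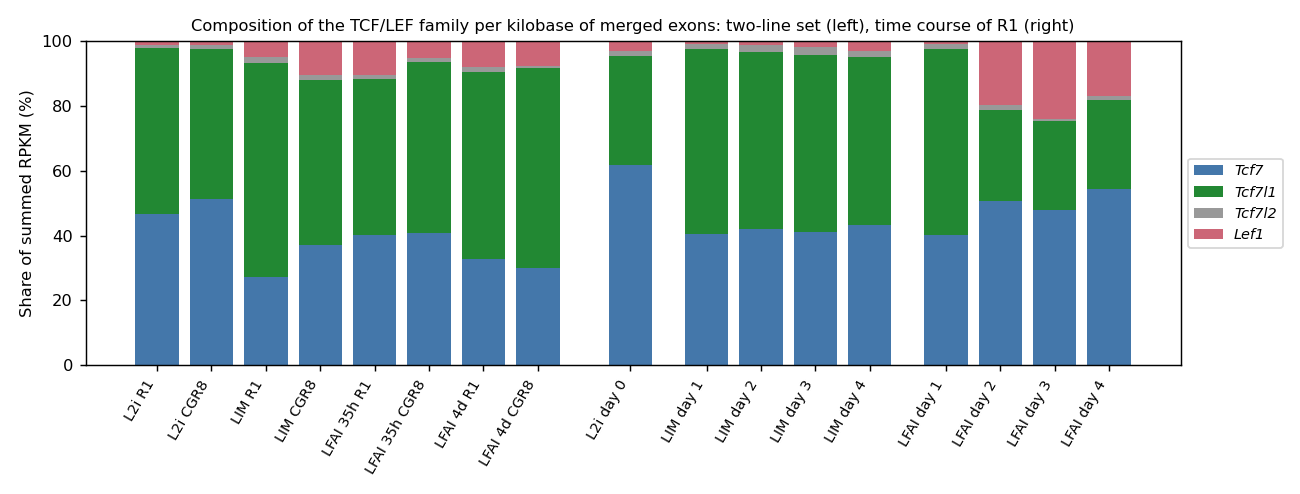
Share of each gene in the summed RPKM of the family (y axis, %, merged exons) in the 8 two-line libraries (left) and the 9 R1 time course libraries (right), 1 bar per library. Tcf7 and Tcf7l1 fill most of every bar, and Lef1 reaches 23.9% in LFAI day 3.

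Within R1, Lef1 differed more between 4 days of LFAI and LIM in the time course (log2 2.64 on day 4) than in the two-line set (log2 0.97). The LIM cells of the two-line set had spent 4 passages in that medium. On day 0 Lef1 was at 17.8 CPM (95% counting interval 15.7 to 20.2). In LIM it was at 4.20 CPM on day 1, 6.98 on day 2, 11.3 on day 3 and 18.7 on day 4, a dip followed by a return to the level of day 0 (log2 0.07 on day 4, interval -0.19 to 0.33). In LFAI it was at 3.96 CPM in the library labelled day 1, then at 119.8 CPM (114 to 126) on day 2, 180.5 on day 3 and 116.5 on day 4. The step from the library labelled day 1 to day 2 was log2 4.92, and without that library the rise from day 0 to day 2 was log2 2.75 (interval 2.55 to 2.95). On day 3 LFAI had 16.0 times the Lef1 level of LIM (log2 4.00, interval 3.76 to 4.24). There is 1 library per point, so intervals cover counting error only and no test was made.

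In the time course, Tcf7l1 was higher in LIM than in LFAI from day 2 on, and Tcf7 was lower. Tcf7l1 was at 90.3 CPM on day 0 and at 160.3, 146.1, 153.3 and 140.5 CPM on days 1 to 4 of LIM. In LFAI it was at 149.4 CPM in the library labelled day 1 and at 76.3, 93.2 and 84.6 CPM on days 2 to 4. Without the library labelled LFAI day 1, the LFAI points of Tcf7l1 lay between log2 -0.24 and 0.05 of day 0. Tcf7 was at 110.1 CPM on day 0 and at 76.5, 75.1, 76.8 and 78.7 CPM on days 1 to 4 of LIM. In LFAI it was at 70.4 CPM in the library labelled day 1 and at 92.6, 107.9 and 111.0 CPM on days 2 to 4. Without the library labelled LFAI day 1, the LFAI points of Tcf7 lay between log2 -0.25 and 0.01 of day 0. On day 4, Tcf7 in LFAI was at its starting level (log2 0.01, interval -0.09 to 0.12). In LIM it differed from day 0 by log2 -0.49 (interval -0.60 to -0.37). Tcf7l2 was at 8.40 CPM on day 0, between 11.0 and 14.1 CPM in LIM, 10.4 CPM in the library labelled LFAI day 1 and between 4.98 and 9.27 CPM on days 2 to 4 of LFAI.

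**Figure D4:**
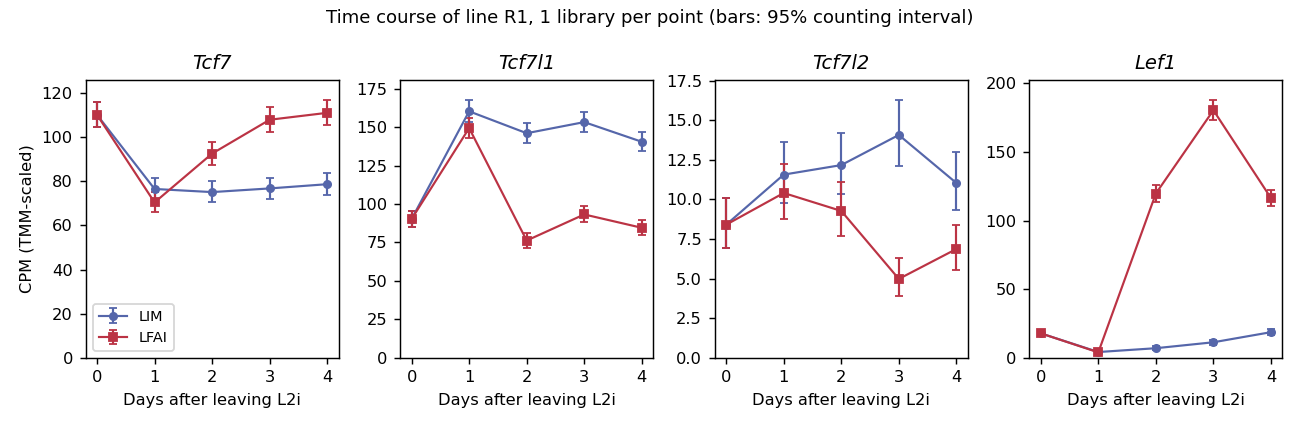
Level of the 4 genes (y axis, TMM-scaled CPM from 0, a separate scale per gene) on days 0 to 4 after leaving L2i (x axis) in R1, with LIM as circles and LFAI as squares, 1 library per point and 95% exact Poisson intervals of counting error. Lef1 climbs to 180.5 CPM in LFAI while it stays at or below 18.7 CPM in LIM. The media coincide on day 1, where the LFAI point is the library labelled LFAI day 1 that was close to LIM day 1 over all genes.

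Per kilobase, Tcf7 led the family on day 0 with 61.8% of the summed RPKM, ahead of Tcf7l1 with 33.9%. In LIM the order was reversed on all 4 days, with Tcf7l1 at 51.8% to 56.9% and Tcf7 at 40.6% to 43.3%. In LFAI, Tcf7 led on days 2 to 4 with 47.8% to 54.3%, Tcf7l1 held 27.6% to 28.01%, and Lef1 rose to 19.6%, 23.9% and 17.0%. Per kilobase of the longest transcript, Lef1 was the leading member on LFAI day 3 with 39.5%.

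The same medium did not give the same values in both sets. R1 in L2i had 168.0 CPM of Tcf7l1 in the two-line set and 90.3 CPM on day 0 of the time course, and 8.09 and 17.8 CPM of Lef1. Within R1, Lef1 in LIM was log2 2.00 above L2i in the two-line set, after several passages, and log2 0.07 above day 0 after 4 days. After 4 days of LFAI the Lef1 rise was alike in both sets, log2 2.97 and 2.71. For Tcf7l1 these values were 0.29 and -0.09, and for Tcf7 -0.39 and 0.01. With 4 days of LFAI set against LIM within R1, Tcf7l1 differed by log2 0.11 in the two-line set and -0.73 in the time course. For Tcf7 that difference was 0.56 and 0.50. Per kilobase of merged exons, Tcf7l1 led R1 after 4 days of LFAI in the two-line set (57.9%, Tcf7 32.8%). On day 4 of LFAI in the time course Tcf7 led (54.3%, Tcf7l1 27.7%). Each set was scaled separately, coating, sequencing protocol and time in the medium differ together, and their parts cannot be told apart.

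Of 17 listed TCF/LEF target genes, 14 passed the filter on low counts and were tested. At least 7 of these were called lower in each IWP2 medium than in L2i, while Lef1 was higher. Some passed that filter through their L2i libraries alone, such as Sp5 (mean 36.7 CPM in L2i, at most 0.59 in the other groups) and Cdx1 (54.7 and at most 0.10). Such genes could only come out lower, so nothing about the family is read from the counts and medians of this list. Of the 14 tested in the two-line set, 7 were lower and 1 higher in LIM (median log2 -1.47, against 0.01 over all genes). There, 7.81% of all genes were called lower. The counts were 7 lower and 1 higher after 35 h of LFAI (median -1.93), with 7.16% of genes called lower, and 9 lower and 1 higher after 4 days (median -4.01), with 23.3% called lower. Axin2, a negative regulator of the pathway and a common readout of it, was at 99.3 (R1) and 151 CPM (CGR8) in L2i, 15.8 and 17.8 CPM in LIM, 22.7 and 25.3 CPM after 35 h, and 5.54 and 4.51 CPM after 4 days. No IWP2 library overlapped with L2i, and Axin2 fell by 2.89 ± 0.23 in LIM on the log2 scale (edgeR adjusted p = 0.00021). Sp5, a zinc-finger factor with the CTTTGAT site shown above, was at 28.6 and 44.8 CPM in L2i and at most 1.13 CPM in the other 6 libraries. Tnfrsf19, a receptor gene with the other CTTTGAT site, was at 72.8 and 87.8 CPM in L2i, 20.7 and 27.3 CPM in LIM, and 1.45 and 1.18 CPM after 4 days of LFAI. Notum, a secreted inhibitor of Wnt ligands, was at 137 and 147 CPM in L2i, 62.7 and 61.6 CPM in LIM, 163 and 166 CPM after 35 h of LFAI and 1.38 and 0.78 CPM after 4 days. The 1 riser, named after its values were seen, was Myc, a growth regulator, at 8.09 and 7.97 CPM in L2i and 94.8 and 53.7 CPM after 4 days of LFAI. Axin2 in the time course was at 123 CPM on day 0 at 14.0 CPM in the library labelled LFAI day 1, and between 6.73 and 29.7 CPM in the other 7 libraries, in LIM and in LFAI alike.

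The naive genes known to be repressed by Tcf7l1 all fell. All 5 (Esrrb, Nanog, Tfcp2l1, Klf2 and Nr5a2) were called lower in LIM (median log2 -1.33), after 35 h of LFAI (-1.53) and after 4 days (-7.57), where 7.81%, 7.16% and 23.3% of all genes were called lower. Nanog, a core factor of the naive state, was at 1169 (R1) and 971 CPM (CGR8) in L2i, 253 and 361 CPM in LIM, 180 and 325 CPM after 35 h, and 27.0 and 40.1 CPM after 4 days. Esrrb, a nuclear receptor of the naive network, was at 906 and 909 CPM in L2i, 312 and 417 CPM in LIM, and 8.37 and 4.44 CPM after 4 days of LFAI. In the time course Nanog was at 824 CPM on day 0 and between 841 and 1007 CPM in LIM. In the LFAI series it was at 1026 CPM in the library labelled day 1 and between 52.7 and 170 CPM afterwards.

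**Figure D5:**
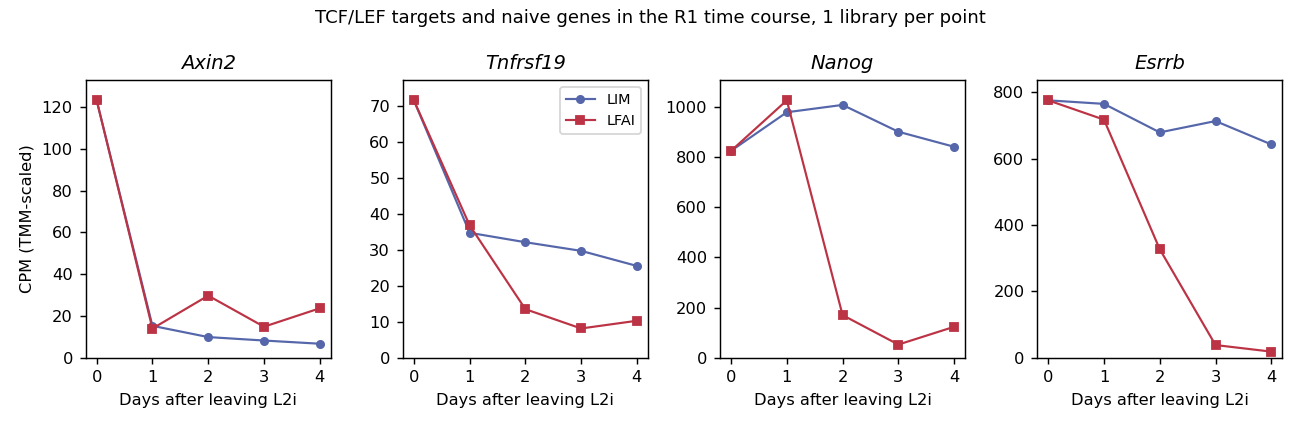
Level (y axis, TMM-scaled CPM from 0, a separate scale per gene) of the targets Axin2 and Tnfrsf19 and of the naive genes Nanog and Esrrb on days 0 to 4 (x axis) in R1, LIM as circles and LFAI as squares, 1 library per point. Axin2 drops from 123 CPM to 15.3 CPM on LIM day 1 and to 14.0 CPM in the library labelled LFAI day 1. Nanog and Esrrb part between the media from day 2, and their LFAI point of day 1 is that same library, which was close to LIM day 1.

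Among partners of the TCF/LEF proteins the changes went both ways. Over all genes, 11.3% were called higher and 7.81% lower in LIM, 7.35% and 7.16% after 35 h of LFAI, and 21.5% and 23.3% after 4 days, and nothing particular to these lists is read from their counts. Of 14 nuclear beta-catenin partners, 1 was higher and none lower in LIM against L2i, and 2 were higher and 2 lower after 4 days of LFAI (median log2 -0.14). The chromatin remodeller Chd8, known to restrain beta-catenin targets, rose by 0.68 ± 0.15 in LIM on the log2 scale, and Ldb1, a LIM-domain adaptor, fell by 1.04 ± 0.14 after 4 days. Of 13 tested co-repressors and inhibitors, 3 were higher and 2 lower in LIM, 2 and 2 after 35 h, and 2 and 4 after 4 days. Tle4, a Groucho co-repressor, was at 114 (R1) and 128 CPM (CGR8) in L2i and 308 and 319 CPM after 35 h of LFAI, a rise of 1.37 ± 0.17 (edgeR adjusted p = 0.0016). Aes, a short protein of the Groucho family, was at 244 and 202 CPM in L2i and 48.8 and 52.9 CPM after 4 days, and fell by 2.14 ± 0.24 on the log2 scale. Tle6 fell by 4.98 ± 0.37 over the same comparison, and Ctbp2, a co-repressor of another family, rose by 0.82 ± 0.11.

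Upstream of the family, 1 of 17 genes of the destruction complex and its transducers was higher and 3 were lower in LIM, and 5 each way after 4 days of LFAI (median log2 0.12). Gsk3b encodes a form of the kinase GSK3, which CHIR99021 inhibits. Its level was 131 (R1) and 137 CPM (CGR8) in L2i and 85.3 and 79.7 CPM in LIM. In LIM it fell by 0.70 ± 0.13 on the log2 scale (edgeR adjusted p = 0.0062). Axin2 is in this list as well as among the targets. Of 16 kinases and ubiquitin ligases that act on TCF/LEF proteins or their receptors, 1 was higher and none lower in LIM, and 4 were higher and 3 lower after 4 days. In LIM 11.3% of all genes were called higher and 7.81% lower. After 4 days 21.5% of all genes were called higher and 23.3% lower, near the share of this list and of the destruction complex. Usp47, a deubiquitinase, rose by 0.75 ± 0.12 after 4 days on the log2 scale.

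Markers of other cell types that use these factors were measured beside the family. The T lymphocyte markers Ptprc, Cd3e, Cd3g, Cd4 and Cd8a summed to 6.24 and 9.28 CPM in L2i and to at most 3.92 CPM in the 6 IWP2 libraries, where Lef1 was higher. Ptprc was at 0 in both L2i and both LIM libraries. In the two-line set the neural progenitor markers (Sox1, Pax6, Neurod1, Neurog2 and Olig2) summed to 6.04 and 6.62 CPM in L2i and to 39.5 (CGR8) and 88.5 CPM (R1) in LIM. They summed to 17.7 and 19.7 CPM after 35 h of LFAI, and to 5.82 and 7.24 CPM after 4 days. The R1 time course differed, with 7.38 CPM on day 0 and 41.5 CPM on day 4 of LIM. In LFAI these markers summed there to 29.4, 41.1 and 47.9 CPM on days 2 to 4. Their part in the Lef1 values was not tested. The trophoblast list summed to 104 and 105 CPM in L2i and 7.78 to 69.7 CPM in the others, nearly all of it Tfap2c in L2i (97.7 and 99.9 CPM).

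The genes whose levels followed each member most closely over the 8 two-line libraries were ranked by Pearson correlation of log2 CPM among 9118 genes, as a description that shares libraries and depth. For Lef1 these were Skil (r = 0.978), Slc16a3 (0.9753) and Vrtn (0.971), with r of 0.889, 0.796 and 0.982 over the 9 time course libraries. For Tcf7 they were Tert, Zfp277 and Xrcc3 (0.949 to 0.977), with 0.53 to 0.70 in the time course. Gtdc1 followed Tcf7l1 at 0.982 in the two-line set and ran against it in the time course (r = -0.897), while Amz2 (0.976) had -0.559 and Map3k11 (0.971) had 0.01. For Tcf7l2 they were Pcyt1a, Cramp1l and Mrtfb (0.928 to 0.930), with 0.857, -0.331 and 0.696. Tcf7 and Lef1 correlated at -0.53 over the 8 libraries and at 0.80 over the time course, and Tcf7l1 and Lef1 at 0.34 and -0.87. Without the library labelled LFAI day 1, the time course values of these pairs were 0.76 and -0.86. Those of Skil, Slc16a3 and Vrtn were then 0.881, 0.754 and 0.979, those of Tert, Zfp277 and Xrcc3 0.784, 0.576 and 0.701, those of Gtdc1, Amz2 and Map3k11 -0.891, -0.580 and -0.113, and those of Pcyt1a, Cramp1l and Mrtfb 0.879, -0.333 and 0.691.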

How the data were processed

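The deposited values were counts of reads per Ensembl gene. Per the labels, libraries were made with a stranded mRNA kit and sequenced on a HiSeq2500. Per the submitters' processing notes, HISAT2 2.0.4, HTSeq 0.6.1 and DESeq2 1.10.1 were used with build GRCm38. The strand setting and annotation release are not given in the sources used here. Summary entries that name no gene (47.7% to 51.9% of reads) were left out. Of 47729 genes, 47310 (99.12%) matched GENCODE M21.

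The 8 two-line libraries were fitted with edgeR 4.0.16 in R 4.3.3 (filterByExpr, 15525 genes, all 4 members included, TMM factors 0.964 to 1.033, quasi-likelihood test on group means, 4 residual degrees of freedom, Benjamini-Hochberg over all genes). Calls needed an adjusted p under 0.05, and SEs are the log2 fold over the square root of F. The test was run on simulated counts with known folds, the same spread for every gene and no difference between lines. That spread was set below the common one of the data (coefficient of variation 0.225). The run therefore does not measure how often calls are wrong in the data. P-values measure the spread between libraries of 2 lines. The time course was TMM-scaled separately over 15682 genes. Ratios added 0.5 to each count. Promoter windows are RefSeq sequences of GRCm38.p6. Figures were drawn with Matplotlib 3.10.9.

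Lines are the replicates, so same-numbered libraries share a cell line, and residuals correlated between groups at 0.05 to 0.38. The members and lists were chosen with earlier results of these data known. From each list at most 4 genes with the smallest p per comparison were named, with all 5 naive genes and exceptions stated. The 3 closest genes per member needed a mean of 10 CPM. Alternatives were DESeq2 size factors, no filter, DESeq2 1.42.0, limma-voom (limma 3.58.1), the line as a replicate block, fewer libraries, added time course libraries, and each library left out.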

Additional observations from a re-analysis of the deposited data

Results flagged for a closer look

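Each of the 4 members was compared between every pair of the 4 two-line groups. In 7 of these comparisons the 2 lines moved in opposite directions, each by more than its 95% counting interval. In 2 more the signs were opposite but a value lay within that interval, Tcf7l1 (-0.042 and 0.098) and Tcf7l2 (0.29 and -0.11) from L2i to 35 h of LFAI. The differences between lines were not tested, since each line has 1 library per medium. The share of all genes that met the same rule was not measured, so nothing particular to the members is read from the count. Counting intervals leave out the spread between cultures. Values are log2 folds within R1 and then within CGR8.

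Lef1 was flagged in all 3 comparisons among the IWP2 media. From LIM to 35 h of LFAI it changed by 1.29 in R1 and -0.996 in CGR8. From LIM to 4 days of LFAI it changed by 0.97 and -0.39, and from 35 h to 4 days by -0.32 and 0.61. In all of these libraries Lef1 was above its level in L2i. The LIM cells had 4 passages in LIM for R1 and 6 for CGR8, and line and passage cannot be told apart.

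Tcf7l2, at 6.34 to 12.2 CPM in this set, changed from L2i to 4 days of LFAI by 0.79 in R1 and -0.68 in CGR8, and from 35 h to 4 days by 0.50 and -0.57. Tcf7 changed from LIM to 4 days by 0.56 and -0.23. Tcf7l1 changed from LIM to 35 h by -0.23 and 0.093.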

How the results depend on the processing

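Lef1 was called higher than in L2i in LIM, after 35 h and after 4 days of LFAI under every alternative run (15, 14 and 15 of them), with log2 folds of 1.92 to 3.15, 2.15 to 3.21 and 2.73 to 2.89 and a highest adjusted p of 0.049. The Tcf7 calls were less stable. In LIM the fall was -0.74 (adjusted p = 0.076) with only the 4 libraries compared, and after 4 days it was -0.41 (adjusted p = 0.10) with the day 0 and day 4 libraries added. With 1 library left out, Tcf7 ranged from -1.08 to -0.46 in LIM (5 of 8 lost the call), from -0.76 to -0.48 after 4 days (4 lost it) and from -0.68 to -0.40 over the IWP2 media (4 lost it). Leaving out a library leaves its group with 1, which is assumed to vary like the other groups.

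With the line as a replicate block, as a paired fit, no member call changed, and Lef1 in LIM was 2.65 (adjusted p = 0.0027). Permuted within lines, the 3 Lef1 ratios kept their sizes, each with an exact permutation p = 0.0625, the smallest that these arrangements allow. Uncalled values changed sign in other cases. Tcf7l2 after 4 days against L2i was -0.051, and Tcf7l1 after 4 days against LIM -0.10, with time course libraries added. Tcf7l2 between 4 days and 35 h was -0.0021 with DESeq2 size factors, -0.020 without filter, -0.0020 with the DESeq2 Wald test, -0.030 with limma-voom and -0.038 with 4 libraries.

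Left-out ranges that crossed 0 were as follows. Tcf7l1 ranged from -0.032 to 0.10 (35 h against L2i), -0.16 to 0.041 (35 h against LIM) and -0.057 to 0.058 (lines). Tcf7l2 ranged from -0.23 to 0.47 (35 h against L2i), -0.36 to 0.44 (4 days against L2i), -0.42 to 0.32 (4 days against 35 h), -0.084 to 0.61 (IWP2 media) and -0.15 to 0.34 (lines). Lef1 ranged from -0.50 to 0.85 (35 h against LIM), -0.34 to 0.90 (4 days against LIM), -0.39 to 0.64 (4 days against 35 h) and -0.38 to 0.43 (lines). Tcf7 ranged from -0.16 to 0.48 (4 days against LIM), and Tcf7l2 over Tcf7l1 from -0.26 to 0.44. The cause was not tested.

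Per kilobase of the longest transcript, shares in L2i, LIM, 35 h and 4 days were 2.22%, 13.8%, 14.2% and 14.1% for Lef1 and 2.10%, 3.11%, 2.09% and 1.98% for Tcf7l2. For Tcf7 they were 43.2%, 25.8%, 33.2% and 25.3%, and for Tcf7l1 52.5%, 57.2%, 50.5% and 58.6%. The shift follows from the lengths used.

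The share of all genes called moved more than the member calls. Over all alternatives it ranged from 9.11% to 22.6% in LIM against L2i (19.1% as reported), from 5.32% to 17.9% after 35 h (14.5%), from 28.4% to 47.5% after 4 days (44.8%) and from 16.5% to 34.0% over the IWP2 media (30.7%). Among the IWP2 media it ranged from 1.31% to 11.0% for 35 h against LIM (6.38%), from 12.8% to 32.8% for 4 days against LIM (29.5%) and from 20.4% to 39.8% for 4 days against 35 h (36.8%), and between the lines from 0.171% to 2.58% (0.541%).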
